A study of Rattus norvegicus with 9 samples.

Results

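The 10 genes described here are the alpha- and beta-tubulin isoforms of the rat left ventricle: Tuba1a, Tuba1b, Tuba1c, Tuba4a and Tuba8 for alpha-tubulin, and Tubb2a, Tubb2b, Tubb4b, Tubb5 and Tubb6 for beta-tubulin. They are 10 of the 35843 genes in the deposited expression table, and each symbol stood in 1 row of it. They were chosen by name, with the group levels of tubulin genes in these same rats known. Tuba8 was picked for its measured change after infarction and under treatment, so its values are given as a description and without a test.

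Microtubules are hollow polymers of alpha- and beta-tubulin heterodimers, and each subunit comes in several gene-encoded isotypes that differ mainly in their C-terminal tails. The tails are the sites where tyrosine is removed and put back and where glutamate chains are added, and these marks change how motors and associated proteins bind. In the cardiomyocyte, microtubules carry cargo along the cell, surround the nucleus and bear part of the load at each contraction, and a denser, detyrosinated network is known from failing hearts. Tuba8 is an alpha-tubulin known mainly from heart, skeletal muscle and testis, Tuba1b and Tubb5 are the common forms of most tissues, and Tubb6 is known to rise in injured and regenerating skeletal muscle.

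RNA sequencing covered 9 adult male Sprague-Dawley rats, 3 in each of 3 groups, all taken at day 28. Group Sham was operated without ligation and received saline by gavage every day. Group MI had a myocardial infarction made by tying off the left anterior descending branch of the coronary arteries for good, and received saline in the same way. Group MI + DAPA (1st d), the DAPA rats below, had the same ligation and received dapagliflozin, an inhibitor of the sodium-glucose cotransporter SGLT2, at 1 mg/kg by daily gavage from the first day. The labels give left ventricle as the tissue, whereas the study's methods say that molecular work mainly used the infarct border with the scar cut away and the matching region in group Sham. The libraries are of whole tissue, so fewer cells of a type and less RNA per cell cannot be told apart. The labels call the rats biological replicates.

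The values are FPKM, fragments scaled to transcript length and library size, so levels can be compared between genes. From 13597239 to 17210909 reads per rat could be recovered from them. Genes of the mitochondrial genome took 63.2% ± 3.18 of these in the Sham rats, 13.8% ± 6.15 in the MI rats and 25.6% ± 7.42 in the DAPA rats (SD, n = 3 per group). The deposited scaling nearly equalises reads outside the mitochondrial genome. Scaled to all recovered reads instead, the median log2 fold change of all genes moved by 0.93 in MI vs. Sham, and the calls went from 1634 higher and 1390 lower to 6099 higher and 290 lower. Shares of one tubulin in the total of its family do not depend on the scaling. The defining cardiomyocyte markers were present in every rat, with none of the 13 found at 0. Their summed FPKM was 9237 to 13260 in group Sham, 2915 to 14776 in group MI and 11758 to 24663 in the DAPA rats. MI rat 2 stood apart, with the lowest cardiomyocyte sum of 2915 FPKM and a T and B lymphocyte marker sum of 2992 FPKM. That lymphocyte sum was 30.5 and 528 FPKM in MI rats 1 and 3 and between 6.92 and 15.6 FPKM in the Sham and DAPA rats. Endothelial markers summed to 974 to 1175 FPKM in the Sham rats, 279 to 366 FPKM in the MI rats and 379 to 421 FPKM in the DAPA rats. In MI vs. Sham 5 of 7 were called lower, against 10.3% of all genes. Of 8 smooth muscle and pericyte markers 2 were called higher and 1 lower, against 12.1% and 10.3% of all genes, and the 1 adipocyte marker tested was called higher.

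The promoters of 3 members are printed as examples of genes whose changes are described below. They are Tuba8, an alpha isotype known mainly from heart, skeletal muscle and testis, and Tuba4a, called higher in the DAPA rats than in group Sham. The third is Tubb6, the beta isotype that rose after infarction. Tuba1a, called lower after infarction, is not printed. Each line holds the 250 bases before the annotated start, 5′ to 3′ on the gene's strand, from RefSeq GRCr8. Capitals mark matches on either strand to any of 8 motifs. The letters searched were TATAAA for the element near the start site that bears that name, CCAAT for the box called by its own letters, GGGCGG for the element known as the GC box, CANNTG for the element known as the E-box, CATTCC for the muscle element known as MCAT and TGACG for the core of the cyclic AMP element (CRE). The CArG box and the MEF2 site were searched by their usual consensus. No 2 matches overlap in these 3 windows.
Tuba8, chr4:156112022-156112271, plus strand: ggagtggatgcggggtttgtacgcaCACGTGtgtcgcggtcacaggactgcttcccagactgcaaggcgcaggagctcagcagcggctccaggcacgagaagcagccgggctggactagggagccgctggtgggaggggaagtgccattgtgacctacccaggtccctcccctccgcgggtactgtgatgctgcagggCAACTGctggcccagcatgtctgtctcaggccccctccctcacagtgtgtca
Tuba4a, chr9:84162585-84162834, minus strand: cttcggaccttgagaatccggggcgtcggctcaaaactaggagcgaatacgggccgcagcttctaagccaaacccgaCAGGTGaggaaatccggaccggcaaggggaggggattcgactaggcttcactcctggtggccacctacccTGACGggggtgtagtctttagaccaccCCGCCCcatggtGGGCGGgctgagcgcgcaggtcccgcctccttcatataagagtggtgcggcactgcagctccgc
Tubb6, chr18:63213037-63213286, plus strand: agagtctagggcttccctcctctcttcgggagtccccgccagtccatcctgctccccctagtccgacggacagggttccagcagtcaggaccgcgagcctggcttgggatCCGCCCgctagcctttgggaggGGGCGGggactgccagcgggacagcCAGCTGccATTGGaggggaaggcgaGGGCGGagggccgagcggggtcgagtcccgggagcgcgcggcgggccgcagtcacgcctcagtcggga

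All 10 members matched a RefSeq promoter by symbol. The Tuba8 window held 2 E-boxes, which began at positions -225 and -52 from the start, and no match to the other 7 motifs. Tuba8 and Tubb2b were the 2 members without a GC box, a motif found in 8 of the 10 member windows and in 30.5% of the 33469 promoters of this length. Tuba4a had 2 GC boxes, 1 E-box and 1 CRE core, and Tubb6 had 3 GC boxes, 1 CCAAT box and 1 E-box. A CCAAT box stood in 7 of the 10 windows against 34% of all promoters, and an E-box in 9 of 10 against 65.5%. A TATA box stood in 2 of the 10 against 12.9%, and a CRE core in 3 of the 10 against 18.2%. None of the 10 held an MCAT, CArG or MEF2 match, which 12.1%, 1.5% and 2.96% of all promoters held. GC content was 64.8% for Tuba8, 62.8% for Tuba4a and 71.2% for Tubb6, against a median of 51.2% over all promoters.

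In group Sham, mean levels per length ran from Tuba1a (285 FPKM) and Tuba1b (245 FPKM) through Tubb5 (163 FPKM) and Tubb4b (130 FPKM) to Tuba4a (60.2 FPKM), Tuba8 (40.2 FPKM), Tubb6 (23.9 FPKM), Tubb2a (21.1 FPKM), Tubb2b (2.03 FPKM) and Tuba1c (0.923 FPKM). In that order, Tuba1a and Tuba1b, Tubb5 and Tubb4b, Tuba4a and Tuba8, Tubb6 and Tubb2a, and Tubb2b and Tuba1c overlapped over the 3 rats. In group MI the order was headed by Tubb5 (198 FPKM) and Tuba1b (179 FPKM), which overlapped. Tuba1a came next at 121 FPKM, and Tuba8 moved from rank 6 to rank 8, where it overlapped with Tubb2b at 4.3 FPKM. In the DAPA rats Tuba4a stood at rank 3 with 183 FPKM, its range overlapping with those of both neighbours, Tubb5 and Tuba1a.

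**Figure D1:**
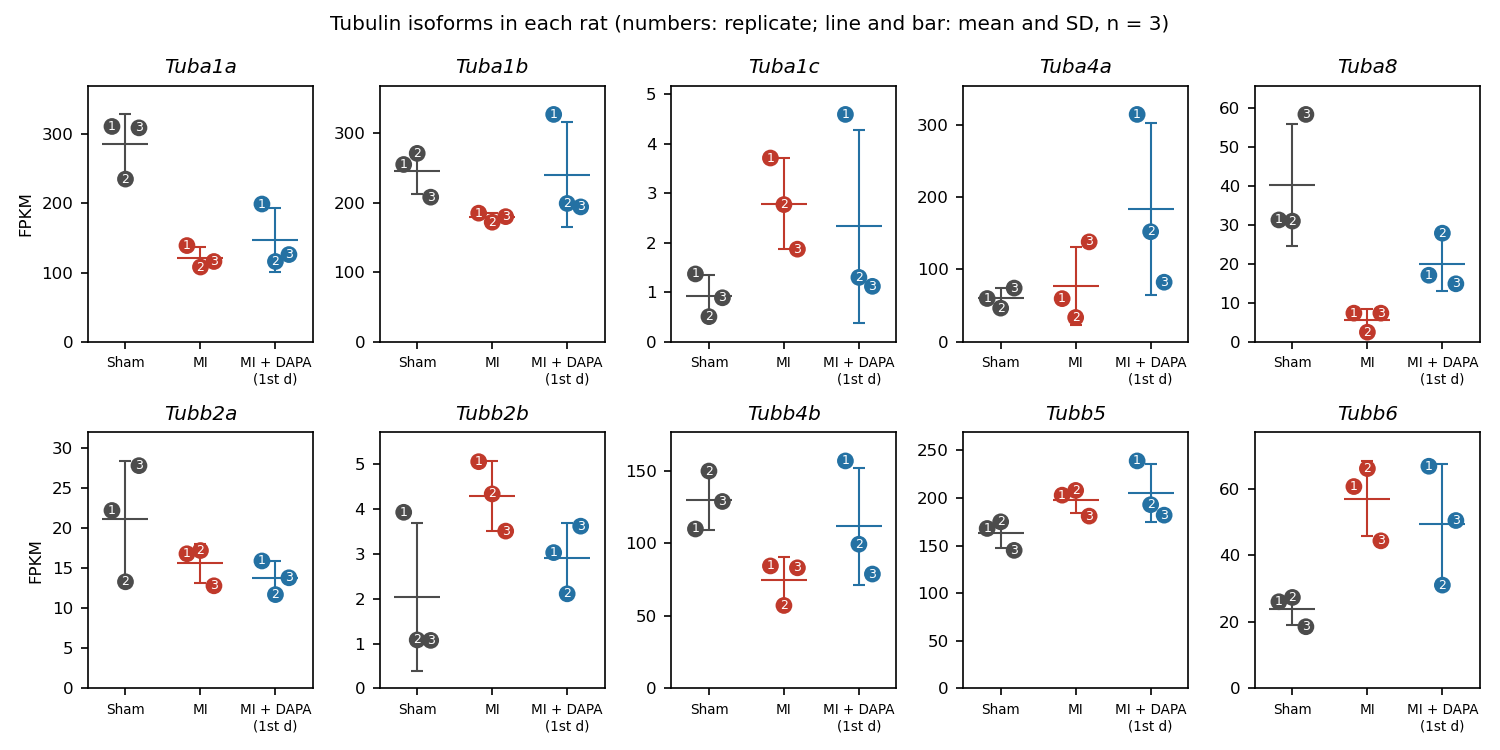
FPKM of each of the 10 tubulin isoforms by group, on axes that start at 0; numbered points are the 3 rats of each group, and the line and bar give the mean and SD. Tuba8 was at 31 to 58.4 FPKM in group Sham, 2.47 to 7.36 FPKM in group MI and 14.9 to 27.9 FPKM in the DAPA rats, with no overlap between the 3 groups.

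Tuba8 (ENSRNOG00000048169) was lowest after infarction and intermediate under treatment. Its FPKM was 31.3, 31 and 58.4 in Sham rats 1, 2 and 3, 7.36, 2.47 and 7.36 in MI rats 1, 2 and 3, and 17.1, 27.9 and 14.9 in DAPA rats 1, 2 and 3. Every MI rat lay below every DAPA rat, and every DAPA rat lay below every Sham rat. The log2 fold change on log2(FPKM + 1) was -2.66 (SE 0.40, n = 3 per group) in MI vs. Sham and 1.70 (SE 0.40, n = 3 per group) in MI + DAPA (1st d) vs. MI. Without MI rat 2 these were -2.24 and 1.28. Relative to Sham, the DAPA rats were at a log2 fold change of -0.96 (SE 0.31), a difference that was -0.11 when libraries were scaled to all recovered reads.

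The level of Tuba8 was set against the mean log2(FPKM + 1) of the 13 cardiomyocyte markers in the same rat, a difference that does not rest on the choice of library scale for genes well above the added 1. That difference was -3.03, -3.39 and -2.70 in Sham rats 1 to 3, -4.74, -4.81 and -5.67 in MI rats 1 to 3, and -4.91, -4.53 and -4.47 in DAPA rats 1 to 3. Relative to that marker mean, Tuba8 was lower in all 6 infarcted rats than in any Sham rat, by 2.03 in group MI and 1.60 in the DAPA rats on the log2 scale. The DAPA and MI rats overlapped, with a mean difference of 0.44. The markers themselves differed by group. Of the 13 found, 0 were called higher and 3 lower in MI vs. Sham, against 12.1% and 10.3% of all genes. Those 3 were Myh6 (-2.43), Tnni3 (-2.32) and Mybpc3 (-1.62), whereas the median of the 13 was -0.35 and 2 were positive. The Tuba8 change of -2.66 lay nearer to Myh6 and Tnni3 than to that median. In MI + DAPA (1st d) vs. MI, 3 were called higher and 0 lower, against 0.951% and 1.11% of all genes. All 13 log2 fold changes were positive there, as were 6261 of the 13251 genes tested. Whether cardiomyocyte content accounts for the Tuba8 levels was not tested.

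**Figure D2:**
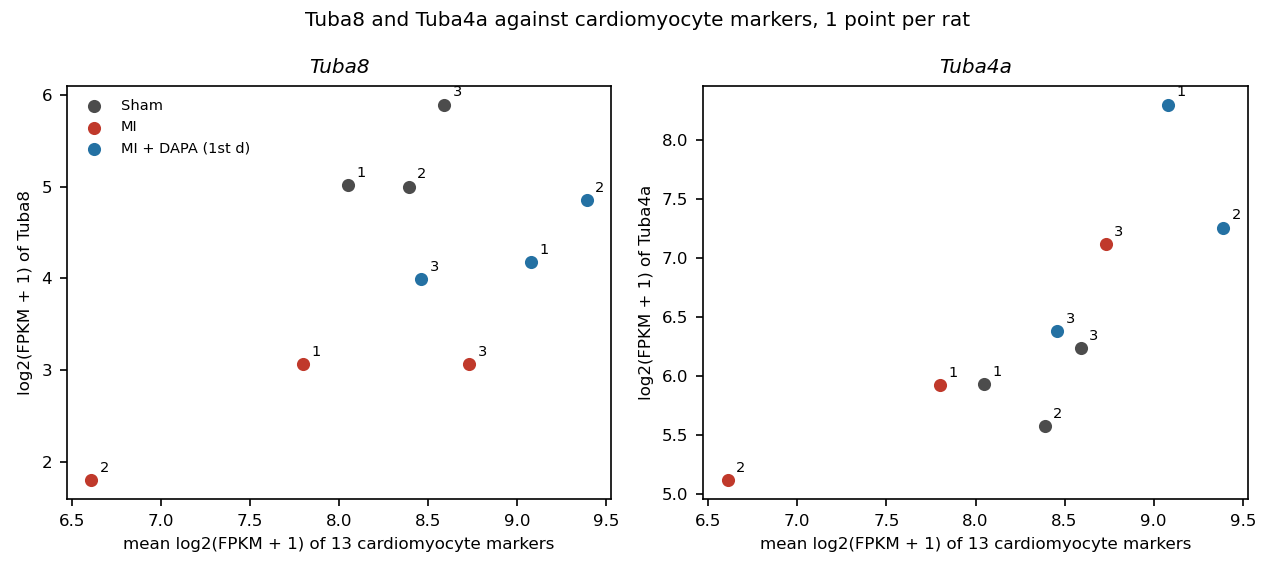
The log2(FPKM + 1) of Tuba8 (left) and Tuba4a (right) on the vertical axis against the mean log2(FPKM + 1) of 13 cardiomyocyte markers on the horizontal axis; each numbered point is 1 rat, coloured by group. The marker mean was 8.05 to 8.59 in the Sham rats, and of the infarcted rats only DAPA rat 3 (8.46) lay within that range. Tuba8 minus the marker mean was -4.47 in DAPA rat 3 and -5.67 in MI rat 3, whose marker mean was 8.73. MI rats 1 and 2 (7.80 and 6.61) lay below the Sham range and DAPA rats 1 and 2 (9.08 and 9.39) above it.

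The other alpha isotypes did not move together after infarction. Tuba1a (ENSRNOG00000060728), best known from developing neurons, was the most abundant isotype in group Sham and fell. Its FPKM was 311, 235 and 309 in Sham rats 1 to 3 and 139, 108 and 116 in MI rats 1 to 3, so the groups did not overlap. Its log2 fold change in MI vs. Sham was -1.22 (SE 0.18) with a limma adjusted p of 0.00296 over all genes. The call was made with any 1 rat left out, where the fold change ran from -1.36 to -1.15, but the fold change was -0.12 and not called when scaled to all recovered reads, which is 1.04 below the median of all genes on that scale.

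Tuba1b (ENSRNOG00000053468) was at 255, 271 and 208 FPKM in Sham rats 1 to 3 and at 185, 172 and 180 FPKM in MI rats 1 to 3. The groups did not overlap, but the log2 fold change of -0.44 (SE 0.15, limma adjusted p = 0.0576) did not pass the fold threshold, and it was 0.67 when scaled to all recovered reads. Tuba1c (ENSRNOG00000021438) was scarce, at 1.37, 0.508 and 0.889 FPKM in Sham rats 1 to 3 and 3.71, 2.77 and 1.87 FPKM in MI rats 1 to 3. Its groups did not overlap either. Because 1 Sham rat reached FPKM 1, Tuba1c entered the fit through the MI rats, where it was high, and its log2 fold change of 0.97 (SE 0.27), or 1.54 with a pseudocount of 0.1, is given as a description. Tuba1a, Tuba1b and Tuba1c are neighbours on rat chromosome 7 with near-identical coding regions, and RefSeq lists 5 pseudogenes of Tuba1a and 14 of Tuba1b by symbol, so the division of reads among these 3 genes is uncertain. RefSeq also lists 4 pseudogenes of Tubb4b and 1 of Tuba4a, and their part in the reads of those genes was not tested.

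Tuba4a (ENSRNOG00000003597), an alpha-tubulin encoded without a C-terminal tyrosine, varied widely between rats of a group. Its FPKM was 59.8, 46.5 and 74.2 in Sham rats 1 to 3 and 59.6, 33.6 and 138 in MI rats 1 to 3. The MI rats lay on both sides of the Sham range, with a log2 fold change of 0.14 (SE 0.47, limma adjusted p = 0.833) that was 1.23 and called when scaled to all recovered reads, 0.31 above the median of all genes on that scale. MI rat 2 was lowest and MI rat 3 highest of their group in both Tuba4a and the summed cardiomyocyte markers. Set against the marker mean, Tuba4a was at -2.12, -2.82 and -2.36 in Sham rats 1 to 3 and at -1.88, -1.50 and -1.61 in MI rats 1 to 3. That difference was higher by 0.77 in group MI without overlap (exact permutation p = 0.1, the smallest that 3 against 3 rats allow). The marker mean itself was lower in group MI, at 7.71 ± 1.06 against 8.34 ± 0.28 in group Sham (SD, n = 3 per group), whereas Tuba4a alone differed by only 0.14.

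Among the beta isotypes, Tubb6 rose and the remaining 4 did not pass both thresholds. Tubb6 (ENSRNOG00000018371) was at 26, 27.3 and 18.5 FPKM in Sham rats 1 to 3 and at 60.6, 66 and 44.3 FPKM in MI rats 1 to 3. Every MI rat was above every Sham rat, with a log2 fold change of 1.22 (SE 0.22) and a limma adjusted p of 0.00559. The call held with any 1 rat left out, the fold change then lying between 1.05 and 1.38, and with MI rat 2 left out it was 1.10. Scaled to all recovered reads it was 2.29, or 1.36 above the median of all genes on that scale. Fibroblast markers moved with it: 8 of 9 were called higher in MI vs. Sham, against 12.1% of all genes. Their sum was 449 to 728 FPKM in group Sham and 3787 to 7389 FPKM in group MI. Macrophage markers did so too, with 7 of 7 called higher against the same 12.1%, and sums of 119 to 432 FPKM in group Sham and 1673 to 3083 FPKM in group MI. The part of these cells in the Tubb6 level was not tested.

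Tubb4b (ENSRNOG00000010170), a widely expressed isotype that is also used in cilia, was at 110, 150 and 129 FPKM in Sham rats 1 to 3 and at 84.5, 57.2 and 83.2 FPKM in MI rats 1 to 3. Its groups did not overlap, and its log2 fold change was -0.79 (SE 0.20, limma adjusted p = 0.0216), under the fold threshold and 0.31 when scaled to all recovered reads. Tubb5 (ENSRNOG00000061216) was at 168, 175 and 145 FPKM in Sham rats 1 to 3 and at 203, 208 and 181 FPKM in MI rats 1 to 3. Although these groups stood apart as well, its log2 fold change was only 0.28 (SE 0.15, limma adjusted p = 0.166). Scaled to all recovered reads it was 1.39, which is 0.47 above the median of all genes on that scale.

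Tubb2a (ENSRNOG00000017558) and Tubb2b (ENSRNOG00000017445), isotypes known mainly from neurons and neighbours on chromosome 17, overlapped between the groups. Tubb2a was at 22.2, 13.3 and 27.8 FPKM in Sham rats 1 to 3 and at 16.8, 17.2 and 12.8 FPKM in MI rats 1 to 3, with a log2 fold change of -0.37 (SE 0.27, limma adjusted p = 0.317) that was 0.68 when scaled to all recovered reads. Tubb2b was at 3.93, 1.08 and 1.07 FPKM in Sham rats 1 to 3 and at 5.06, 4.34 and 3.51 FPKM in MI rats 1 to 3. Sham rat 1 was the rat that reached into the MI range, and the log2 fold change was 0.93 (SE 0.36, limma adjusted p = 0.0799).

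Of the 9 members other than Tuba8, all of which passed the filter on low values, 1 was called higher (Tubb6) and 1 lower (Tuba1a) in MI vs. Sham by limma (unadjusted p under 0.05, with a log2 fold change over 1 in size). Over the 13485 genes tested, 12.1% were called higher and 10.3% lower, so the members' counts of 1 in 9 were near the background. Scaled to all recovered reads, 5 were called higher (Tuba1c, Tuba4a, Tubb2b, Tubb5 and Tubb6) and 0 lower. On that scale Tuba1c, and largely Tubb2b, entered the fit through the MI rats, where they were high, so these calls are a description. The groups did not overlap for 6 of the 9, which were 3 higher, Tuba1c among them, and 3 lower, against 54.6% of all genes tested. The median log2 fold change of the 9 was 0.14, against -0.01 over all genes.

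**Figure D3:**
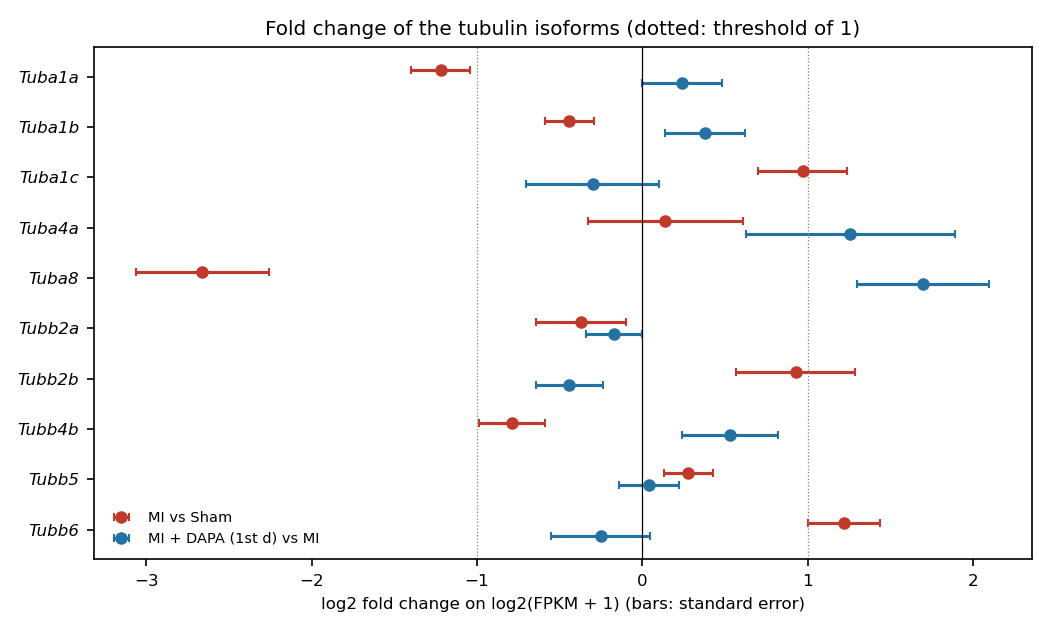
Log2 fold change on log2(FPKM + 1) of each tubulin isoform on the horizontal axis, with standard errors as bars, for MI vs. Sham (red) and MI + DAPA (1st d) vs. MI (blue); dotted lines mark the threshold of 1. Tuba8 moved from -2.66 to 1.70 between the comparisons, which share the MI rats, while 8 of the other 9 members lay within 1 of 0 in the second.

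The summed alpha-tubulin FPKM was 659, 584 and 650 in Sham rats 1 to 3 and 394, 319 and 443 in MI rats 1 to 3. All MI rats were below all Sham rats by a mean of 245 FPKM, with no test because Tuba8 is part of the sum. With Tuba8 left out of it, the sum was 628, 553 and 592 FPKM in Sham rats 1 to 3 and 387, 317 and 436 FPKM in MI rats 1 to 3, which did not overlap (exact permutation p = 0.1, two-sided), although the difference turned to 142 FPKM in the other direction when scaled to all recovered reads. The summed beta-tubulin FPKM was 330, 367 and 321 in Sham rats 1 to 3 and 370, 353 and 325 in MI rats 1 to 3, which overlapped (exact permutation p = 0.7). The ratio of alpha without Tuba8 to beta, which is free of the scaling, was 1.9, 1.51 and 1.84 in Sham rats 1 to 3 and 1.04, 0.898 and 1.34 in MI rats 1 to 3, again without overlap (exact permutation p = 0.1). A ratio within a library shows unequal change of the 2 sums and not which of them moved.

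The mRNA makeup of both families, as shares of summed FPKM, differed between group MI and group Sham. Tuba8 supplied 4.75%, 5.32% and 8.98% of alpha-tubulin in Sham rats 1 to 3 and 1.87%, 0.774% and 1.66% in MI rats 1 to 3. Tuba1a supplied 45% ± 4.12 in the Sham rats and 31.8% ± 4.83 in the MI rats (SD, n = 3 per group). Tuba1b was at 39.1% ± 7.22 and 47.1% ± 6.71, and Tuba4a at 9.48% ± 1.76 and 18.9% ± 10.8 (SD, n = 3 per group), both with overlap. Per unit of summed alpha-tubulin FPKM, every MI rat thus had less Tuba8 and Tuba1a than every Sham rat. These are shares of mRNA and not of protein. The Tuba1a share also rests on the uncertain division of reads among Tuba1a, Tuba1b and Tuba1c.

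In the beta family, Tubb4b supplied 33.2%, 41% and 40.2% in Sham rats 1 to 3 and 22.8%, 16.2% and 25.6% in MI rats 1 to 3. Tubb6 supplied 7.89%, 7.44% and 5.76% in the Sham rats and 16.4%, 18.7% and 13.6% in the MI rats. Tubb5 supplied 47.9% ± 2.95 in the Sham rats and 56.6% ± 2.16 in the MI rats (SD, n = 3 per group). The shares of Tuba1a, Tuba1c, Tubb4b, Tubb5 and Tubb6 did not overlap between the groups (exact permutation p = 0.1 each, adjusted p = 0.18 over the 9 shares tested, the alpha shares being tested with Tuba8 left out of their total), and no share could reach 0.05 with 3 rats against 3. Shares within a family add to a whole, so a higher share of 1 isotype lowers the others.

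**Figure D4:**
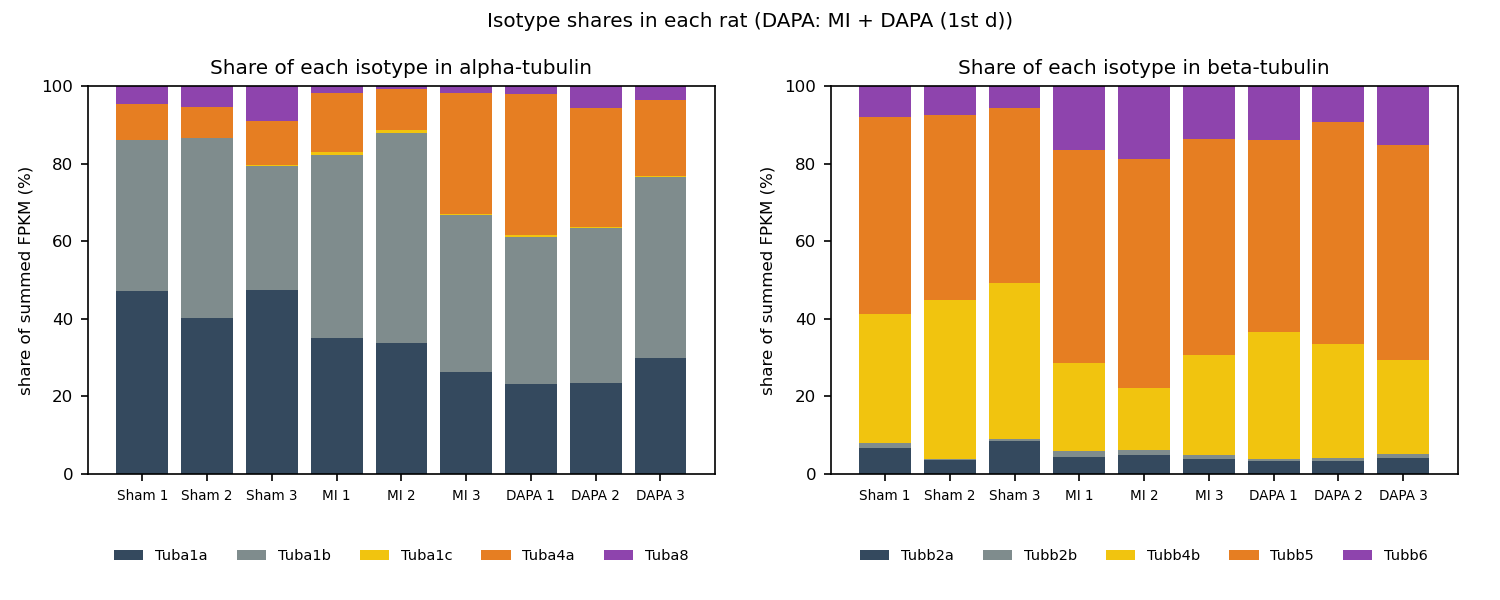
Share of each isotype in the summed FPKM of the 5 alpha-tubulin genes (left) and the 5 beta-tubulin genes (right), in percent, with 1 stacked bar per rat. The Tuba8 segment was at 4.75% to 8.98% in the Sham rats and 0.774% to 1.87% in the MI rats, and the Tubb6 segment at 5.76% to 7.89% and 13.6% to 18.7%.

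Treatment was read in MI + DAPA (1st d) vs. MI. None of the 9 members other than Tuba8 was called in either direction, and 0 of the 9 had an unadjusted limma p under 0.05. Of the 13251 genes tested, 0.951% were called higher and 1.11% lower, and 0 had an adjusted p under 0.05 although 1125, or 8.49%, had an unadjusted p under 0.05. The groups did not overlap for 1 of the 9 members, Tuba1b, against 13.8% of all genes tested. Tuba1b was at 327, 199 and 194 FPKM in DAPA rats 1 to 3, with a log2 fold change of 0.38 (SE 0.24, limma adjusted p = 0.605).

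Tuba4a had the largest fold change of these 9 in this comparison. It was at 314, 152 and 82.3 FPKM in DAPA rats 1 to 3, and MI rat 3 at 138 FPKM lay above DAPA rat 3. Its log2 fold change was 1.26 (SE 0.63, limma adjusted p = 0.558). It was called without MI rat 3 (1.79) and without DAPA rat 3 (1.72), and was 0.77 without DAPA rat 1. Set against the cardiomyocyte marker mean, Tuba4a was at -0.78, -2.14 and -2.08 in DAPA rats 1 to 3 and -1.66 on average in group MI (exact permutation p = 1). The summed cardiomyocyte markers were 21350, 24663 and 11758 FPKM in DAPA rats 1 to 3 and 8019, 2915 and 14776 FPKM in MI rats 1 to 3, and their part in the Tuba4a level was not tested.

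For the remaining members the DAPA rats overlapped with the MI rats. Tuba1a was at 199, 116 and 126 FPKM and Tubb4b at 157, 99.5 and 78.9 FPKM in DAPA rats 1 to 3, where DAPA rat 1 was highest for both. Their log2 fold changes were 0.24 (SE 0.24) and 0.53 (SE 0.29). Tubb6 was at 66.7, 31 and 50.4 FPKM, with a log2 fold change of -0.25 (SE 0.30) that was 0.04 without DAPA rat 2. Tubb5 was at 239, 193 and 182 FPKM, Tubb2a at 15.9, 11.7 and 13.8 FPKM, Tubb2b at 3.03, 2.11 and 3.62 FPKM and Tuba1c at 4.59, 1.3 and 1.12 FPKM in DAPA rats 1 to 3. Their log2 fold changes in this comparison lay between -0.44 for Tubb2b and 0.04 for Tubb5.

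The Tuba8 share of alpha-tubulin in DAPA rats 1 to 3 was 1.98%, 5.63% and 3.56%, above the MI maximum of 1.87% in all 3. DAPA rat 1 was close to that maximum. Summed alpha-tubulin other than Tuba8 was 845, 468 and 403 FPKM in DAPA rats 1 to 3, which overlapped with group MI (exact permutation p = 0.2), and its ratio to beta was 1.75, 1.39 and 1.23 (exact permutation p = 0.2). All of the 9 shares tested overlapped between the DAPA and MI rats (exact permutation p of 0.2 or more, adjusted p of 0.3 or more). Tubb6 was at 12.8% ± 3.21 and Tubb4b at 28.7% ± 4.33 of beta-tubulin in the DAPA rats (SD, n = 3).

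Set against group Sham, which the first comparison also used, the DAPA rats had 1 of the 9 members called higher, Tuba4a, and 0 called lower, where 9.54% of the 13359 genes tested were called higher and 8.16% lower. Tuba4a had a log2 fold change of 1.40 (SE 0.45, limma adjusted p = 0.0502), and its call was lost without Sham rat 2 (1.23) and without DAPA rat 1 (0.91). Tuba1a, at -0.98 (SE 0.25, limma adjusted p = 0.0234), and Tubb6, at 0.97 (SE 0.29, limma adjusted p = 0.042), lay just under the fold threshold. In shares, Tuba4a was at 36.4%, 30.6% and 19.7% of alpha-tubulin in DAPA rats 1 to 3, against 9.08%, 7.96% and 11.4% in Sham rats 1 to 3. Tuba1a was at 23.1%, 23.4% and 30% against 47.2%, 40.2% and 47.5%, so neither isotype overlapped (exact permutation p = 0.1 each, adjusted p = 0.18). Tuba1c, Tubb4b and Tubb6 shares did not overlap between these groups either, whereas Tuba8 did.

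Of 10 further tubulin genes in the table, 4 passed the filter. Tubb3, the beta isotype used as a neuronal marker, was the 1 called in MI vs. Sham, where 12.1% of all genes were called higher and 10.3% lower. Tubb3 was at 1.08, 1.32 and 1.29 FPKM in Sham rats 1 to 3 and 6.62, 17.6 and 3.84 FPKM in MI rats 1 to 3. It rose by 1.99 on the log2 scale (SE 0.45, limma adjusted p = 0.0141), and was at 14.3, 2.54 and 5.29 FPKM in DAPA rats 1 to 3. Of 7 tested markers of Schwann cells and neurons, 2 were called higher and 0 lower in MI vs. Sham, to be read against the same shares of all genes. They were Uchl1, a deubiquitinase abundant in neurons (1.99, SE 0.39, limma adjusted p = 0.00827, without overlap), and the glial calcium-binding protein S100b (1.41, SE 0.54, limma adjusted p = 0.0773, with overlap). The summed FPKM of all 10 overlapped, at 40.2 to 118 FPKM in group Sham and 50.3 to 85.8 FPKM in group MI, and the part of these cells in the Tubb3 level was not tested. Tubg1, the gamma-tubulin that starts new microtubules, had a log2 fold change of -0.60 (SE 0.15, limma adjusted p = 0.0203) in MI vs. Sham. Tube1, the epsilon-tubulin of centrioles, had -0.80 (SE 0.20, limma adjusted p = 0.0186), and Tubd1, delta-tubulin, had 0.18 (limma adjusted p = 0.51). Tuba3b and Tubal3 were listed at 0 in all 9 rats.

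A wider list of 140 microtubule genes, of which 136 were found, gave the setting of the isoforms. In MI vs. Sham 112 were tested, of which 5 were called higher and 7 lower, Tubb3 included, against 12.1% and 10.3% of all genes, so that both counts lay below the background. The 7 include Kif2c and Klc3, which passed the filter mainly through the Sham rats, where they were high. The median log2 fold change of the 112 was -0.08 against -0.01 over all genes. In MI + DAPA (1st d) vs. MI 108 were tested and 0 were called by limma, with 2 at an unadjusted p under 0.05, the prefoldin subunits Pfdn6 (0.42, adjusted p = 0.558) and Pfdn2 (0.39, adjusted p = 0.558). Prefoldin hands newly made tubulin to the chaperonin CCT. Of the 21 folding genes tested in MI vs. Sham, 0 were called and 8 had an unadjusted limma p under 0.05, as did 49% of all genes tested. The CCT subunit Cct2 was at 29.6, 27.9 and 28 FPKM in Sham rats 1 to 3 and 50.9, 46 and 51.5 FPKM in MI rats 1 to 3, a log2 fold change of 0.77 (SE 0.12, limma adjusted p = 0.00416) under the fold threshold. Ttc5, which recognises nascent tubulin in the control of tubulin mRNA decay, had -0.82 (SE 0.14, limma adjusted p = 0.00521).

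The counts of the single roles below are small and are read against the same 12.1% and 10.3% of all genes. Among 18 tested genes that modify tubulin tails or lysine, 1 was called, and it fell. Ttll7, a ligase that adds glutamate to beta-tubulin tails, was at 11.5, 10.2 and 13.1 FPKM in Sham rats 1 to 3 and 3.67, 3.71 and 4.46 FPKM in MI rats 1 to 3, with a log2 fold change of -1.35 (SE 0.16, limma adjusted p = 0.0017). Agtpbp1, which trims glutamate chains, had -0.96 (SE 0.20, limma adjusted p = 0.0104), and the deacetylase Sirt2 had -0.71 (SE 0.13, limma adjusted p = 0.00684). Ttl, the ligase that puts tyrosine back on alpha-tubulin, had 0.75 (SE 0.17, limma adjusted p = 0.014). These last 3 stood apart between the groups without passing the fold threshold. Vash1 and Vash2, enzymes that remove that tyrosine, also stood apart under the threshold but in opposite directions. They had 0.89 (SE 0.22, limma adjusted p = 0.0186) and -0.92 (SE 0.28, limma adjusted p = 0.0388), and were named after their values were seen.

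Of 22 tested microtubule-associated and end-binding genes, 3 rose and 1 fell in MI vs. Sham, counts close to those shares of all genes. Map1a, which stabilises microtubules, was at 1.26, 0.835 and 1.23 FPKM in Sham rats 1 to 3 and 9.2, 3.85 and 9.07 FPKM in MI rats 1 to 3 (log2 fold change 1.92, SE 0.32, limma adjusted p = 0.00445). The doublecortin-like kinase Dclk1 rose by 1.38 (SE 0.24, limma adjusted p = 0.00552), and Map1b, named after its value was seen because it completes the count, by 1.01 (SE 0.31, limma adjusted p = 0.0399). Mapt, the gene of tau, fell from 10.1, 6.9 and 8.71 FPKM in Sham rats 1 to 3 to 1.76, 0.897 and 3.07 FPKM in MI rats 1 to 3 (log2 fold change -1.77, SE 0.30, limma adjusted p = 0.00479). The cytoskeletal linker Macf1 had -0.88 (SE 0.15, limma adjusted p = 0.00488).

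Of 8 tested destabilising and severing genes, 2 fell, where 10.3% of all genes were called lower. Stmn1, whose product stathmin binds free tubulin dimers, was at 66.4, 88.6 and 66.5 FPKM in Sham rats 1 to 3 and 25.1, 22.9 and 24.6 FPKM in MI rats 1 to 3 (log2 fold change -1.56, SE 0.16, limma adjusted p = 0.00121). The mitotic depolymerase Kif2c was the other. It was at 0.8 to 0.809 FPKM in group MI and passed the filter through the Sham rats, where it was high. Its log2 fold change of -1.05 (SE 0.23) is therefore given as a description. Cycling cell markers, of which 0 of 6 were called, summed to 16.6 to 66.1 FPKM in group Sham and 12 to 21.8 FPKM in group MI. Among 27 tested genes of kinesin and dynein-dynactin transport, 1 rose and 2 fell, against 12.1% and 10.3% of all genes. Kif5b, the main kinesin-1 heavy chain of non-neuronal cells, was at 10.9, 10.9 and 10.1 FPKM in Sham rats 1 to 3 and 33.1, 24.2 and 34.4 FPKM in MI rats 1 to 3 (log2 fold change 1.43, SE 0.17, limma adjusted p = 0.00165). The kinesin light chains Klc4 (-1.24, SE 0.24, limma adjusted p = 0.0075) and Klc3 (-1.75, SE 0.43) fell. Klc3, at 0.565 to 1.17 FPKM in group MI, entered the fit mainly through the Sham rats, where it was high, and is given as a description. Of 12 tested genes of the gamma-tubulin ring and organising centre, Pcnt, a scaffold of the centrosome, fell by 1.14 (SE 0.25, limma adjusted p = 0.0123), and Tubgcp5 had -0.99 (SE 0.15, limma adjusted p = 0.00333).

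**Figure D5:**
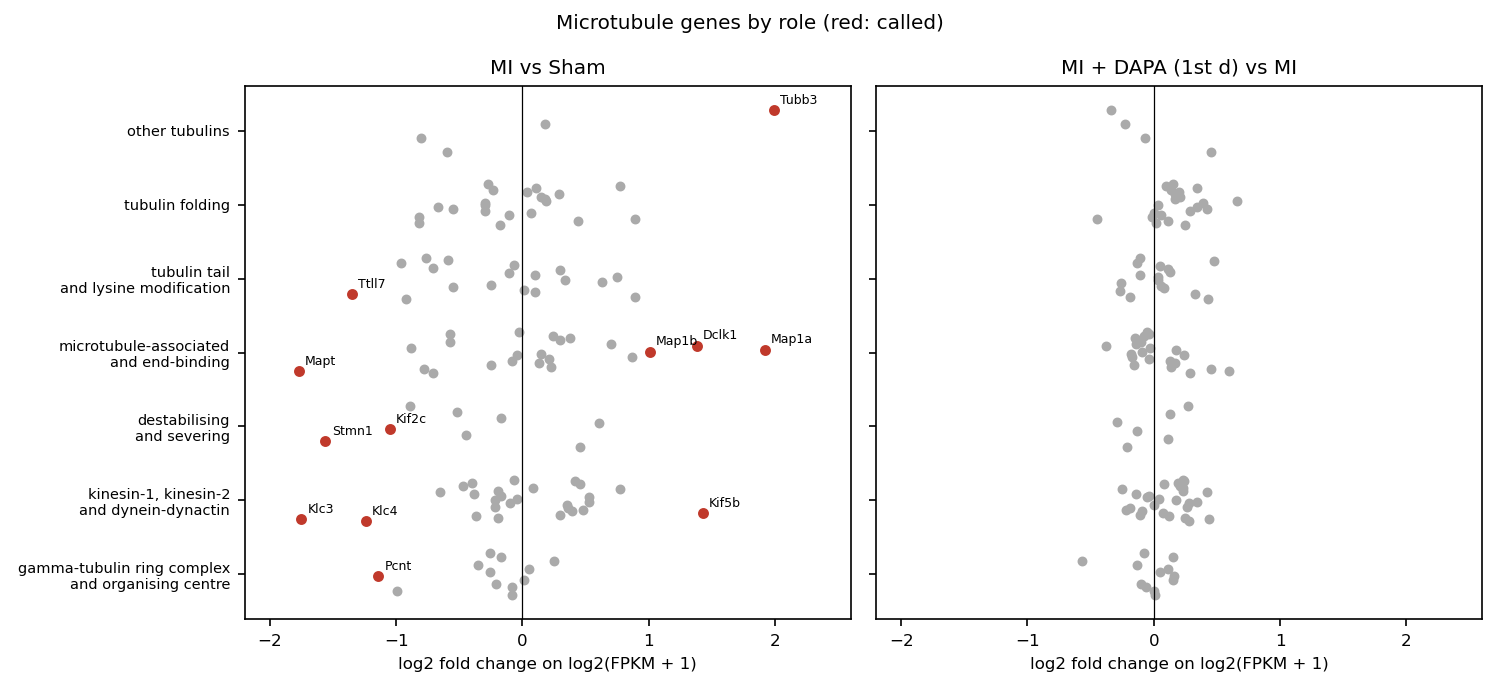
Log2 fold change on log2(FPKM + 1) on the horizontal axis for each microtubule gene tested, grouped by role, in MI vs. Sham (left) and MI + DAPA (1st d) vs. MI (right); red points with names are called. On the left 5 points are called higher and 7 lower of 112, and on the right 0 of 108.

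The genes whose level ran closest to Tuba8 over the 9 rats were ranked by Pearson r on log2(FPKM + 1) among 14157 genes, as a description in which all rats share the group differences. Pgam2, the muscle phosphoglycerate mutase of glycolysis, came first with r = 0.995 and mean levels of 365 FPKM in group Sham, 67.8 FPKM in group MI and 192 FPKM in the DAPA rats. Of the next 9, Ndufb2 (r = 0.983), Ndufa5 (r = 0.979), Ndufa13 (r = 0.978), Ndufb7 (r = 0.970) and Ndufs7 (r = 0.970) encode subunits of respiratory complex I, and Ndufaf8 (r = 0.975) an assembly factor of it. The other 3 were Chchd1 (r = 0.979), Cwc15 (r = 0.976) and Gipc2 (r = 0.974). The likeness says nothing about shared control.

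The other members had different nearest genes. Tuba4a lay closest to Anapc5 (r = 0.986) and to Csrp3 (r = 0.975), a muscle LIM protein that is 1 of the cardiomyocyte markers used here. Tubb6 lay closest to Syncrip (r = 0.980) and Frrs1 (r = 0.979), and Tuba1a to Zfp62 (r = 0.972) and Tead4 (r = 0.971). Between members, Tuba8 had r = -0.84 with Tubb6 and 0.78 with Tubb4b over the 9 rats, but only 0.20 with Tuba4a.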

How the data were processed

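RNA of 9 rat left ventricles was sequenced as poly-A selected libraries, 3 per group. The authors deposited FPKM values for 35843 genes, already divided by gene length and a library-size term. The submitters' processing notes name HISAT2 2.0.5, StringTie 1.3.3b, featureCounts 1.5.0-p3 and DESeq2, without their roles, and the genome build is not given in the sources used here. Groups and replicate numbers follow the sample titles, and the number of columns not used is 0. The members and the gene lists were chosen with earlier results of these data known. Because FPKM are not counts, limma 3.58.1 in R 4.3.3 was run on log2(FPKM + 1), with a trend in the empirical Bayes step and only the 2 groups compared, over genes that reached FPKM 1 in 3 or more of the 6 rats. On this scale the change of weakly expressed genes is understated. Calls required both a log2 fold change over 1 in size and p under 0.05 before adjustment, thresholds taken from the study's methods; adjusted p-values are Benjamini-Hochberg over all genes tested. Totals, shares and differences from the marker mean, 1 value per rat, were put to exact permutation tests, two-sided (scipy 1.17.1), whose smallest p here is 0.1. Alpha sums and ratios with Tuba8 in them were not tested; they were tested with it left out, a change made after seeing the data. A share is the FPKM of an isotype over the summed FPKM of the 5 members of its family. FPKM steps gave whole reads for all 18896 genes seen in 4 libraries or more, to within 0.002 reads; these reads served for depth and for the rescaled alternatives only. They were not used in a count test. The floor of 3 reads was 1.74e-05% to 2.21e-05% of a library, counting error only. Depth outside the mitochondrial genome was lowest in group Sham, at 5702454 to 6570698 reads. Scripts were tested on simulated data. Named genes are all members, other tubulins that pass the filter, per list at most 4 genes with the smallest p in MI vs. Sham and 2 for treatment, and those genes most like each member. The markers Ttn, Tcap, Pecam1, Itgam and Cd79a and the related genes Ttll8, Ttll11, Agbl4 and Mapre2 were not analysed here. Alternatives were a pseudocount of 0.1, no filter, 1 fit over all 9 rats, a block for the replicate number, both rescalings, adjusted p-values and each rat left out.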

Additional observations from a re-analysis of the deposited data

How the results depend on the processing

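Among the 9 members other than Tuba8, the count called higher in MI vs. Sham was 1, against 3 with a pseudocount of 0.1 (Tuba1c and Tubb2b added), 5 with libraries rescaled to all recovered reads (Tuba1c, Tuba4a, Tubb2b and Tubb5 added), and 1 to 3 with each rat left out, reaching 3 without Sham rat 1 and without MI rat 3. Where Tuba1c is counted here and below, it entered the fit through the infarcted rats, where it was high, and is a description. The count called lower was 1, and 0 when rescaled to all recovered reads. In MI + DAPA (1st d) vs. MI the count called higher was 0, and 1 (Tuba4a, 1.26) with all 9 rats in 1 fit, and 0 to 1 with each rat left out, being 1 without MI rat 3 and without DAPA rat 3. In MI + DAPA (1st d) vs. Sham the count called higher was 1, 5 when rescaled to all recovered reads (Tuba1c, Tubb2b, Tubb5 and Tubb6 added), 0 with adjusted p-values and 0 to 2 with each rat left out (0 without DAPA rat 1, 2 without Sham rat 1 or DAPA rat 2). The count called lower there was 0, and 1 (Tuba1a, -1.11) when rescaled to reads outside the mitochondrial genome and 0 to 1 with each rat left out (1 without Sham rat 2 or DAPA rat 1). Rescaling to all recovered reads turned the log2 fold changes of Tuba1b (0.67), Tubb2a (0.68) and Tubb4b (0.31) in MI vs. Sham, of Tubb5 (-0.18) for MI + DAPA (1st d) vs. MI, as well as of Tuba1b (0.82), Tubb2a (0.30) and Tubb4b (0.62) in MI + DAPA (1st d) vs. Sham; the construction of that scale, which raises the median of all genes by 0.93, lowers it by 0.19 and raises it by 0.74 in the 3 comparisons, is the cause. The Tuba8 fold change on that scale was -1.64 in MI vs. Sham, and for the DAPA rats against Sham it was -0.11. With each rat left out, signs turned for Tuba4a in MI vs. Sham (-0.39 to 0.61), Tubb5 (-0.07 to 0.12) and Tubb6 (-0.50 to 0.04) for MI + DAPA (1st d) vs. MI, as well as Tuba1b in MI + DAPA (1st d) vs. Sham (-0.31 to 0.07), none of them called; the cause was not tested. Rescaled to all recovered reads, summed alpha-tubulin differed by 125 FPKM in MI vs. Sham, by 284 FPKM in MI + DAPA (1st d) vs. Sham (142 and 286 FPKM with Tuba8 also left out, a choice made after seeing the data), and summed beta-tubulin by -31.5 FPKM in MI + DAPA (1st d) vs. MI; rescaled to reads outside the mitochondrial genome, summed beta-tubulin differed by -17.9 FPKM in MI vs. Sham. With each rat left out, the beta difference was -0.147 to 24 FPKM in MI vs. Sham, -16.5 to 60.2 FPKM in MI + DAPA (1st d) vs. MI, with -6.31 to 70.3 FPKM for MI + DAPA (1st d) vs. Sham, and the alpha difference in the last was -174 to 47.9 FPKM. The Tuba1b share differed by -1.07 to 6.14 points in MI + DAPA (1st d) vs. Sham with each rat left out; the remaining shares kept their direction under every alternative run, where 3 against 2 rats cannot go below an exact permutation p of 0.2. The replicate block left the counts at 1 higher and 1 lower in MI vs. Sham and changed no count in the other 2 comparisons. Same-numbered rats deviated together no more than others (r of -0.304 to 0.195 against -0.227 to 0.325). Deviations from a mean of 3 rats are tied to each other, so these values cannot settle whether the numbers pair the rats. Depth limits Tuba1c most, with 8 to 116 recovered reads per rat.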

Other observations

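The microtubule genes other than the members were also compared between the DAPA rats and group Sham, where 4 of 111 tested were called higher and 5 lower by limma, against 9.54% and 8.16% of all genes. Map1a, a microtubule-stabilising protein, was at 9.18, 7.35 and 7.51 FPKM in DAPA rats 1 to 3 (log2 fold change 2.10, SE 0.19, limma adjusted p = 0.00159). Kif5b, the kinesin-1 heavy chain, was at 41.3, 24.2 and 31.9 FPKM in DAPA rats 1 to 3 (1.5, SE 0.21, limma adjusted p = 0.00343). Tubb3 (1.65, SE 0.48, limma adjusted p = 0.0376) and Dclk1 (1.00, SE 0.25, limma adjusted p = 0.0222) were the other 2 called higher. Stmn1 was at 18.5, 38.7 and 25.2 FPKM in DAPA rats 1 to 3 (-1.44, SE 0.27, limma adjusted p = 0.00879), Mapt at 2.85, 3.96 and 2.88 FPKM (-1.17, SE 0.20, limma adjusted p = 0.00698) and Ttll7 at 4.28, 5.35 and 6.14 FPKM (-1.02, SE 0.18, limma adjusted p = 0.00807). Klc3 (-1.31, limma adjusted p = 0.0525) and Kif2c (-1.09) were the other 2 called lower. Kif2c, at 0.439 to 0.991 FPKM in the DAPA rats, passed the filter through the Sham rats and is given as a description. Each of these 9 was called in the same direction in MI vs. Sham, a comparison that uses the same Sham rats.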
